A study of Ciona robusta with 6 samples.

Results

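A set of 3 gene models of *Ciona robusta*, a tunicate, is described here because their closest human matches belong to the cGMP pathway by which vertebrate photoreceptors detect light. The 15232 gene models in the deposited counts include all 3, and each was among the 12253 tested. KH2013:KH.L171.13 is an opsin match, whose top human matches are *OPN1LW*, *OPN1MW2* and *OPN1MW3*. KH2013:KH.L18.91 is named *GUCY2F*, a membrane guanylate cyclase, and its top human matches are *GUCY2D*, *GUCY2F* and *NPR2*. KH2013:KH.C2.249 is named *CNGA1/2/3/5*, a subunit of a cyclic nucleotide-gated cation channel. The names are those of the study's gene tables. The genes were chosen by their identity together with their higher counts in *Neurog* > *Neurog* cells, with results of these libraries already known. Their difference in Neurog vs. lacZ is therefore described and not tested.

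All libraries come from cells of the bipolar tail neuron (BTN) lineage, sorted at 9.5 hpf and 20°C from embryos electroporated with plasmids. The sort used a BFP or RFP reporter under the BTN driver of *Neurog*, with no counterselection, and the same driver, which the study notes can be leaky in other tissues, expressed the perturbation. The conditions are *Neurog* > *Neurog*, which overexpresses the wild-type proneural transcription factor, *Neurog* > *Neurog:WRPW*, which expresses a dominant-repressor form of it, and *Neurog* > *lacZ*, the control, which expresses a bacterial enzyme. Each condition has 2 libraries, which the study calls biologically independent. Every condition carries a BFP or RFP reporter plasmid, and the study does not say which library had which. Plasmids enter cells unevenly, so each library is a mix of cells with more and less of them. By the study's account, some lacZ cells of the lineage become BTNs and the others epidermis, while most or all become BTNs in Neurog and none in Neurog:WRPW.

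In vertebrate rods and cones, light isomerizes the retinal bound to opsin, and opsin then activates a G protein that turns on a phosphodiesterase. The phosphodiesterase lowers cGMP, cyclic nucleotide-gated channels close and the cell hyperpolarizes. Membrane guanylate cyclases make cGMP again, while receptor kinases, arrestins and regulators of G-protein signaling shut the cascade off. In the *Ciona* larva, photoreceptor cells of the ciliary type sit in the ocellus of the brain, whereas BTNs are neurons of the tail. Membrane guanylate cyclases and cyclic nucleotide-gated channels also serve other senses. *NPR2*, 1 of the human matches of KH.L18.91, encodes a natriuretic peptide receptor, and *CNGA2* encodes an olfactory channel subunit. The names alone do not place the 3 genes in a photoreceptor.

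The libraries ranged in total from 10315548 to 24499397 counts. Neurog:WRPW replicate 2 was sorted from the fewest cells of the 6, had the lowest total and had 13009 genes with at least 1 count, against 14291 to 14497 in the other 5. *Neurog* itself (KH.C6.129) was at 3934 and 3975 CPM in Neurog, at 109 and 190.3 CPM in Neurog:WRPW, and at 90.1 and 134 CPM in lacZ, where CPM is the count relative to the TMM-scaled library size. These values include reads of the plasmids. The label of the Neurog libraries is thus borne out by this gene, but that of the Neurog:WRPW libraries is not. *Asic* (KH.C1.215), an acid-sensing ion channel gene that marks BTNs, was detected in all 6 libraries and was at 450.5 and 189.9 CPM in Neurog, at 14.6 and 1.33 CPM in Neurog:WRPW, and at 73.6 and 44.8 CPM in lacZ.

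The opsin match was at 370.1 and 326 CPM in Neurog, at 2.38 and 0 CPM in Neurog:WRPW, and at 12.7 and 2.81 CPM in lacZ. Both Neurog libraries lay far above the other 4, and the lower of them was 25.6 times the higher lacZ library. Opsins are G protein-coupled receptors that bind retinal. The mean was 348 ± 31.1 CPM in Neurog, 1.19 ± 1.68 CPM in Neurog:WRPW and 7.77 ± 7.01 CPM in lacZ (SD, n = 2 each). The order of the means was thus Neurog, lacZ and Neurog:WRPW, but those of Neurog:WRPW and lacZ differed by less than the SD of lacZ. Its LogFC, on the log2 scale, was 5.49 (standard error 1.20) in Neurog vs. lacZ, which ranked 4 among all genes tested. By level in CPM per kb of gene model, the gene stood above 97.7% of the genes tested in Neurog and above 36.6% in lacZ. Without lacZ replicate 1 the LogFC was 6.98, and without lacZ replicate 2 it was 4.77.

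The *GUCY2F* match was at 31.7 and 32.2 CPM in Neurog, at 4.65 and 0.111 CPM in Neurog:WRPW, and at 4.56 and 3.16 CPM in lacZ. The Neurog libraries were nearly equal and lay above the other 4, while the lacZ libraries lay between the Neurog:WRPW libraries. The value of 0.111 CPM is 1 count. The mean was 31.9 ± 0.347 CPM in Neurog, 2.38 ± 3.21 CPM in Neurog:WRPW and 3.86 ± 0.987 CPM in lacZ (SD, n = 2 each). Its LogFC in Neurog vs. lacZ was 3.05 (standard error 1.06), and by level in CPM per kb it stood above 61.4% of the genes tested in Neurog and above 16.6% in lacZ. On that scale it was the lowest of the 3 genes in both conditions.

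*CNGA1/2/3/5* was at 96.4 and 128.5 CPM in Neurog, at 13.6 and 15.6 CPM in Neurog:WRPW, and at 33.2 and 18.3 CPM in lacZ. The 3 conditions did not overlap, in the order Neurog, lacZ and Neurog:WRPW. Of the 12253 genes tested, 2275 had both Neurog libraries above both lacZ libraries, so that part of the order is not particular to this gene. The mean was 112.4 ± 22.7 CPM in Neurog, 14.6 ± 1.37 CPM in Neurog:WRPW and 25.7 ± 10.52 CPM in lacZ (SD, n = 2 each). Its LogFC in Neurog vs. lacZ was 2.13 (standard error 0.36), the smallest of the 3 and the one with the smallest error. By level in CPM per kb, the gene stood above 85.4% of the genes tested in Neurog and above 55.2% in lacZ.

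**Figure D1:**
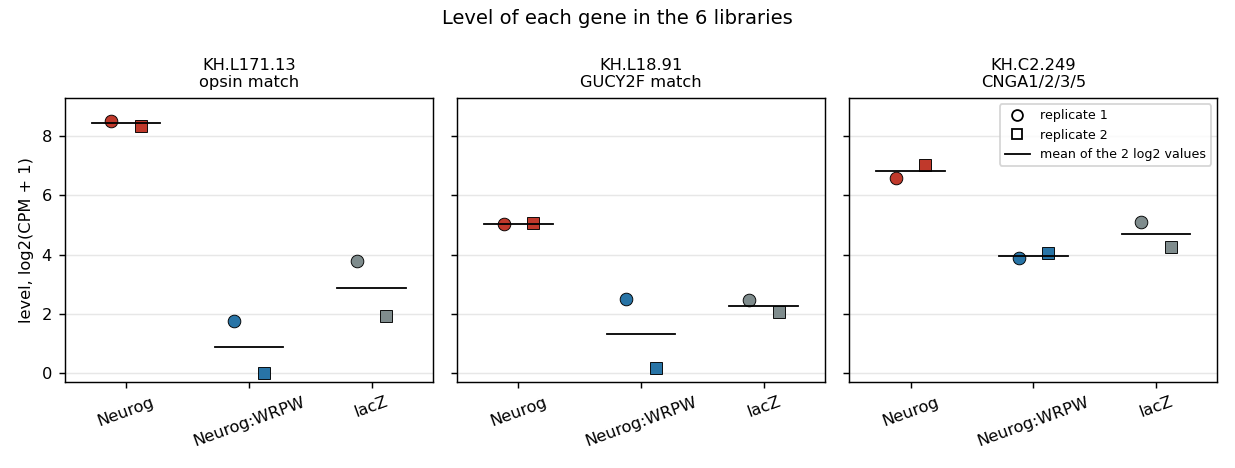
Level of each gene in the 6 libraries, as log2(CPM + 1), by condition. Circles are replicate 1, squares are replicate 2 and lines are the mean of the 2 log2 values. All 3 genes are highest in both Neurog libraries, and the opsin match and the GUCY2F match are at or near 0 in Neurog:WRPW replicate 2.

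All 3 genes were among the 4.36% of genes tested that passed the study's thresholds upward in Neurog vs. lacZ, a LogFC over 0.6 and an unadjusted p under 0.05. The choice of the genes fixes that count. The *GUCY2F* match was not among them when either Neurog library or either lacZ library was left out, at a LogFC of 2.81 to 3.36. Such fits reuse the values by which the genes were chosen, so passing in them is no support for any member. In bulk libraries like these, more cells that express a gene and more RNA of it per cell cannot be told apart. Markers of BTNs moved the same way. *GAD* (KH.S761.6), which encodes the enzyme that makes GABA, was at 682 and 130.4 CPM in Neurog, at 33.5 and 14.1 CPM in Neurog:WRPW, and at 92.4 and 31.1 CPM in lacZ. *Onecut* (KH.C6.185) encodes a transcription factor and stood at 379 and 354.5 CPM in Neurog, at 37.4 and 16.8 CPM in Neurog:WRPW, and at 110.7 and 62.5 CPM in lacZ. *Asic*, *GAD* and *Onecut* summed to 1512 and 674.8 CPM in Neurog, to 85.5 and 32.2 CPM in Neurog:WRPW, and to 276.7 and 138.3 CPM in lacZ, and their part in the values of the 3 genes was not tested.

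Neurog:WRPW vs. lacZ did not choose the genes, but it shares its lacZ libraries with the comparison that did, so the 2 comparisons are not independent. The question here is whether the genes are lower where the repressor form is expressed. The opsin match had a LogFC of -2.51 (standard error 1.14), the *GUCY2F* match one of -0.61 (standard error 1.03) and *CNGA1/2/3/5* one of -0.82 (standard error 0.35). In edgeR's quasi-likelihood test the adjusted p (Benjamini-Hochberg, over all genes) was 1.00 for each. None of the 3 passed the study's thresholds downward by that test, at an unadjusted p of 0.0673, 0.574 and 0.0562, whereas 1.19% of all genes did. The opsin match passed by edgeR's exact test, with a LogFC of -2.65 and an unadjusted p of 0.0417, and none of the 3 passed with DESeq2. With no filter on low counts, *CNGA1/2/3/5* passed by the quasi-likelihood test, at a LogFC of -0.826 and an unadjusted p of 0.0483. Fits with a replicate block, which also changed calls, are given in the last section. The opsin match and *CNGA1/2/3/5* had both Neurog:WRPW libraries below both lacZ libraries, as did 13.7% of all genes tested, and the *GUCY2F* match did not.

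Single libraries carried much of these values. With 0 counts in Neurog:WRPW replicate 2, the opsin match was at least 23.3-fold lower there than the mean of lacZ and at least 8.42-fold lower than lacZ replicate 2, taking 3 counts in that library (0.334 CPM) as the floor, which covers counting error only. In Neurog:WRPW replicate 1 it was at 2.38 CPM, close to the 2.81 CPM of lacZ replicate 2. Its LogFC was -1.04 without lacZ replicate 1, and without lacZ replicate 2 it was -3.24 and passed the thresholds. It passed also without Neurog:WRPW replicate 1, when all counts left in that condition are 0 and the fitted LogFC has no meaning as a size. The *GUCY2F* match was at 0.27 without Neurog:WRPW replicate 2, a reversed sign, and at -5.03 and past the thresholds without Neurog:WRPW replicate 1, on the 1 count left. *CNGA1/2/3/5* was at -0.31 without lacZ replicate 1, and at -1.19 and past the thresholds without lacZ replicate 2.

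**Figure D2:**
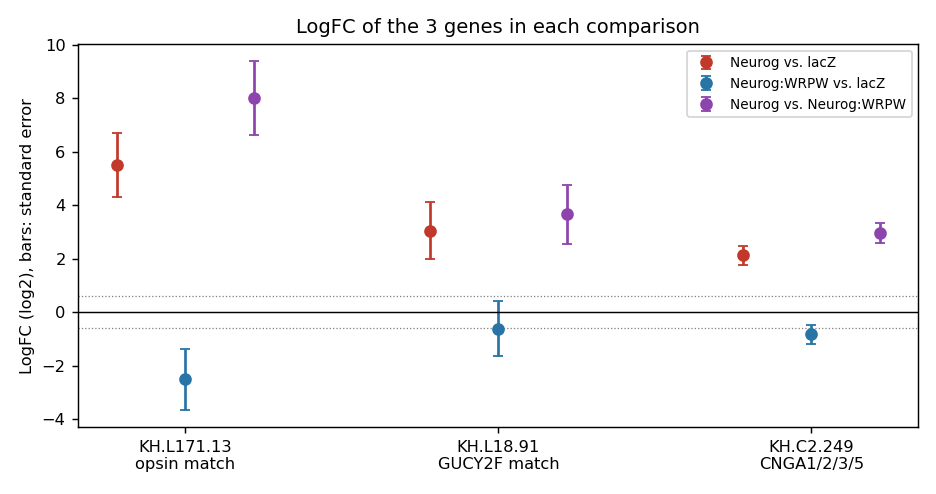
LogFC of the 3 genes in the 3 comparisons, with standard errors as bars and dotted lines at LogFC 0.6 and -0.6. In Neurog vs. lacZ the genes stand at 5.49, 3.05 and 2.13, and in Neurog:WRPW vs. lacZ at -2.51, -0.61 and -0.82.

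Neurog vs. Neurog:WRPW sets both perturbations against each other, and the lacZ libraries enter only through the joint fit and its standard errors. It reuses the Neurog libraries on which the genes were chosen and is given as a description. The LogFC was 8.0 (standard error 1.37) for the opsin match, 3.66 (standard error 1.10) for the *GUCY2F* match and 2.95 (standard error 0.37) for *CNGA1/2/3/5*. The first rests in part on the library at 0 counts, and without it the LogFC was 7.19. For the *GUCY2F* match it was 2.78 without that library and 8.07 without Neurog:WRPW replicate 1.

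Compared per length, as CPM per kb of gene model, the balance among the 3 genes differed between conditions. The models are 1550 bases long for the opsin match, 2245 for the *GUCY2F* match and 2456 for *CNGA1/2/3/5*. The opsin match made up 81.7% and 75.9% of their summed CPM per kb in Neurog, 16.8% and 0% in Neurog:WRPW, and 34.6% and 17.0% in lacZ. It was thus the most abundant of the 3 by this scale in both Neurog libraries, where its level was 239 and 210 CPM per kb. In the other 4 libraries *CNGA1/2/3/5* was the most abundant, at 5.55 and 6.34 CPM per kb in Neurog:WRPW and 13.5 and 7.45 CPM per kb in lacZ. The ratio of the opsin match to *CNGA1/2/3/5* on this scale was 6.08 and 4.02 in Neurog, 0.276 and 0 in Neurog:WRPW, and 0.608 and 0.243 in lacZ. These shares follow from the levels by which the genes were chosen and carry no test.

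The 3 genes also differed in how closely replicates agreed. Within Neurog, replicate 1 minus replicate 2 was 0.182 for the opsin match, -0.022 for the *GUCY2F* match and -0.414 for *CNGA1/2/3/5* on the log2 CPM scale, each smaller than the median absolute difference of 0.433 over all genes tested. The BTN markers *Asic* and *GAD* differed by 1.25 and 2.39 between the same libraries, with replicate 1 higher, and *Onecut* by 0.0954. Within Neurog:WRPW the difference was 4.44 for the opsin match and 4.40 for the *GUCY2F* match, larger than that of 98.4% of genes, against -0.191 for *CNGA1/2/3/5*. The sizes at or near 0 counts depend on the prior count of 2 used for the log. Within lacZ all 3 genes were higher in replicate 1, by 2.13, 0.512 and 0.854, and so were *Asic*, *GAD* and *Onecut*, by 0.716, 1.57 and 0.823. Over all genes 50.9% were higher in lacZ replicate 1.

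**Figure D3:**
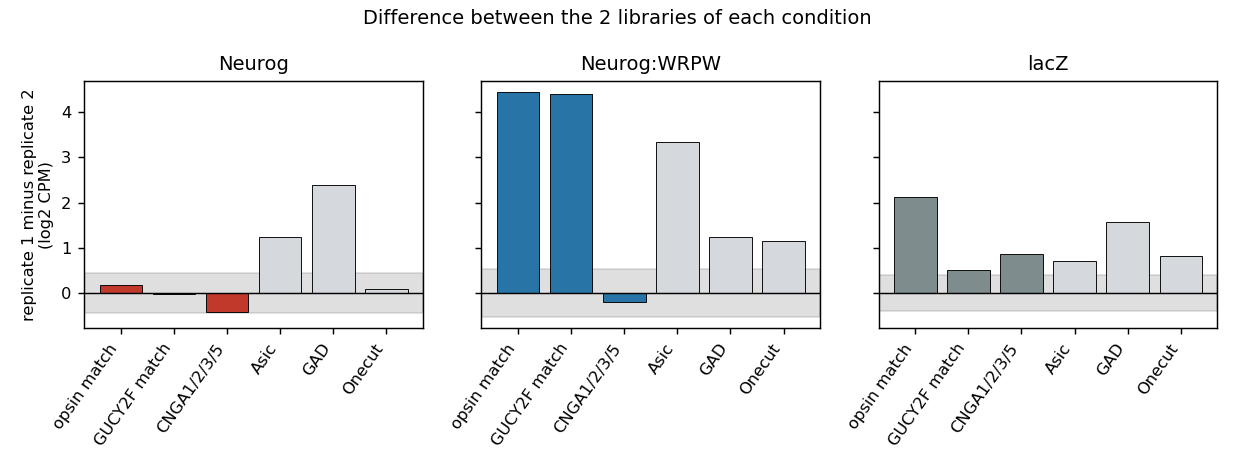
Replicate 1 minus replicate 2 in log2 CPM for the 3 genes (colored bars) and 3 BTN markers (light bars) in each condition, with the median absolute difference of all genes tested as a gray band on either side of 0. In Neurog the 3 genes lie within the band while Asic and GAD do not, and in Neurog:WRPW the opsin match and the GUCY2F match differ by 4.44 and 4.40.

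The rest of the pathway was read from a list of 20 genes whose names or human matches in the study's tables fit a step of light or cyclic nucleotide signaling. The copy of the main table used here holds only its first rows, which run from the highest Neurog LogFC down, so the list can hold almost no gene lower in Neurog and its counts in that comparison are not independent evidence. All 20 were tested. The list also holds genes that the study reports in BTNs. Among them are a regulator of G-protein signaling (KH.C1.314) and a G protein alpha subunit (KH.C2.872). The study also names a neuronal calcium sensor gene, and the list holds a match to that family (KH.C1.1067). The part of BTN differentiation in the values of the list was not tested. In Neurog vs. lacZ, 13 rose at the study's thresholds, none fell and 7 did not pass, against 4.36% of all genes that rose, and the median LogFC was 1.53 against -0.033 over all genes. The smallest adjusted p of the 20, that of *Pde11-related* (KH.L18.65), was 0.207 by edgeR's quasi-likelihood test, 4.83e-08 with DESeq2 and 3.21e-06 by edgeR's exact test. The gene was picked by its value in the comparison from which the list was drawn, so these values are a description and not a test. The 13 numbered 8 without Neurog replicate 1 and 6 without lacZ replicate 2. In Neurog:WRPW vs. lacZ, 2 fell and 18 did not pass, against 1.19% of all genes that fell, and the median LogFC was -0.61 against -0.017. This comparison shares its lacZ libraries with the one from which the list was drawn, so these values are not independent of that choice. The adjusted p of all 20 was 1.00 by the same test. The 2 numbered 0 without lacZ replicate 1, 4 without lacZ replicate 2 and 7 without Neurog:WRPW replicate 1.

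Other guanylate cyclases differed from the *GUCY2F* match in kind. *Gucy1b1* (KH.C2.674) and *GUCY1A2/3* (KH.C8.688) match the subunits of the soluble cyclase, which in vertebrates senses nitric oxide. *Gucy1b1* was at 313 and 235.5 CPM in Neurog, at 21.0 and 4.45 CPM in Neurog:WRPW, and at 41.6 and 8.25 CPM in lacZ. It rose in Neurog by a LogFC of 3.46 (standard error 0.97). *GUCY1A2/3* was at 60.8 and 30.4 CPM in Neurog, at 13.3 and 2.89 CPM in Neurog:WRPW, and at 26.9 and 10.3 CPM in lacZ, with a LogFC of 1.29 in Neurog (standard error 0.78) that did not pass. In Neurog:WRPW their LogFCs were -0.95 (standard error 0.90) and -1.17 (standard error 0.78), neither past the thresholds. The first was 0.658 without lacZ replicate 1, and the second passed, at -2.68, without Neurog:WRPW replicate 1.

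Among cyclic nucleotide-gated channels, *CNGA3* (KH.C7.605) is a second match to the same human subunits as *CNGA1/2/3/5* and was at 11.3 and 2.86 CPM in Neurog, at 0.422 and 3.002 CPM in Neurog:WRPW, and at 2.667 and 3.25 CPM in lacZ. Its groups overlapped, and its LogFCs of 1.26 (standard error 1.00) and -0.84 (standard error 1.03) did not pass, although the second did so at -2.79 without Neurog:WRPW replicate 2.

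The list genes that fell in Neurog:WRPW were *FRQ1/2* and *SLC24A1/2*. The study names a neuronal calcium sensor gene, *Ncs*, among genes raised by Neurog in BTNs that appear to serve neuronal function. *FRQ1/2* (KH.C1.1067) matches the neuronal calcium sensors, relatives of the recoverin of photoreceptors, and was at 241.5 and 134 CPM in Neurog, at 5.44 and 1.45 CPM in Neurog:WRPW, and at 33.0 and 11.6 CPM in lacZ. In Neurog it rose, with a LogFC of 3.08 (standard error 0.74), and it fell in Neurog:WRPW, with a LogFC of -2.63 (standard error 0.75), or -1.68 and not passing without lacZ replicate 1. *SLC24A1/2* (KH.L50.5) matches a sodium/potassium/calcium exchanger, a family that in vertebrate rods removes calcium, and was at 437.6 and 175 CPM in Neurog, at 40.0 and 20.8 CPM in Neurog:WRPW, and at 94.8 and 58.8 CPM in lacZ. In Neurog it rose, with a LogFC of 1.997 (standard error 0.55), and it fell in Neurog:WRPW, with a LogFC of -1.33 (standard error 0.54). The rise did not pass without Neurog replicate 1, at 1.24, or lacZ replicate 2, at 1.69, nor the fall without lacZ replicate 1, at -0.93, or Neurog:WRPW replicate 2, at -0.94. The other exchanger of that family on the list, *SLC24A3/4/5* (KH.L132.15), passed in neither comparison, with LogFCs of 1.10 (standard error 0.72) in Neurog and -1.09 (standard error 0.74) in Neurog:WRPW.

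The list also holds a phosphodiesterase gene and an arrestin gene, from families that serve steps of the cascade. The human matches of *Pde11-related* (KH.L18.65), singled out after its values were seen, are *PDE11A*, *PDE6B* and *PDE6C*. Of these, *PDE6B* and *PDE6C* encode subunits of the photoreceptor enzyme. The *Ciona* phosphodiesterase gene is also named *PDE2*. It was at 417 and 299 CPM in Neurog, at 52.5 and 29.4 CPM in Neurog:WRPW, and at 55.2 and 31.3 CPM in lacZ, so that Neurog:WRPW and lacZ overlapped. Among markers of photoreceptors, an arrestin gene and a homeobox gene were found by name or human match. The table copy searched runs from the highest Neurog LogFC down, so a marker not raised by Neurog could hardly be found there. The rise of these genes in Neurog is therefore not independent evidence. The arrestin gene *ARRB1/2* (KH.C1.1125) has the human matches *ARRB1*, *ARRB2* and the rod arrestin *SAG*. It was at 146.6 and 126.9 CPM in Neurog, at 44.1 and 27.2 CPM in Neurog:WRPW, and at 69.1 and 48.2 CPM in lacZ. KH.C12.152, a homeobox gene whose matches are *PAX6*, *RAX* and *RAX2*, was at 122.5 and 108.3 CPM in Neurog, at 6.23 and 0 CPM in Neurog:WRPW, and at 7.84 and 6.28 CPM in lacZ. The phosphodiesterase, arrestin and homeobox genes rose in Neurog at the study's thresholds, the homeobox gene by a LogFC of 4.03 (standard error 1.19), a rise that did not pass without lacZ replicate 1, at 4.22, or lacZ replicate 2, at 3.88. The rise of the arrestin gene, a LogFC of 1.2 (standard error 0.33), did not pass without lacZ replicate 2, at 0.986. In Neurog:WRPW vs. lacZ none of these 3 passed by edgeR's quasi-likelihood test, although without Neurog:WRPW replicate 1 the arrestin gene passed, as did the homeobox gene, which then has 0 counts left in that condition. Of the list's genes for retinoid handling, *RLBP1* (KH.C11.439), a retinaldehyde-binding protein gene, had LogFCs of 1.60 (standard error 0.48) in Neurog, where it rose, and 0.24 (standard error 0.47) in Neurog:WRPW. *RDH12/14* (KH.C1.872), a retinol dehydrogenase gene, rose in Neurog, with a LogFC of 1.45 (standard error 0.40). It did not pass in Neurog:WRPW, at 0.61 (standard error 0.40). *BCMO1* (KH.C9.224), a carotenoid oxygenase gene, passed in neither, at 0.79 (standard error 0.39) and -0.75 (standard error 0.39). The markers transducin, recoverin, *Otx* and tyrosinase were not analysed here, so the markers shown are not the full set.

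**Figure D4:**
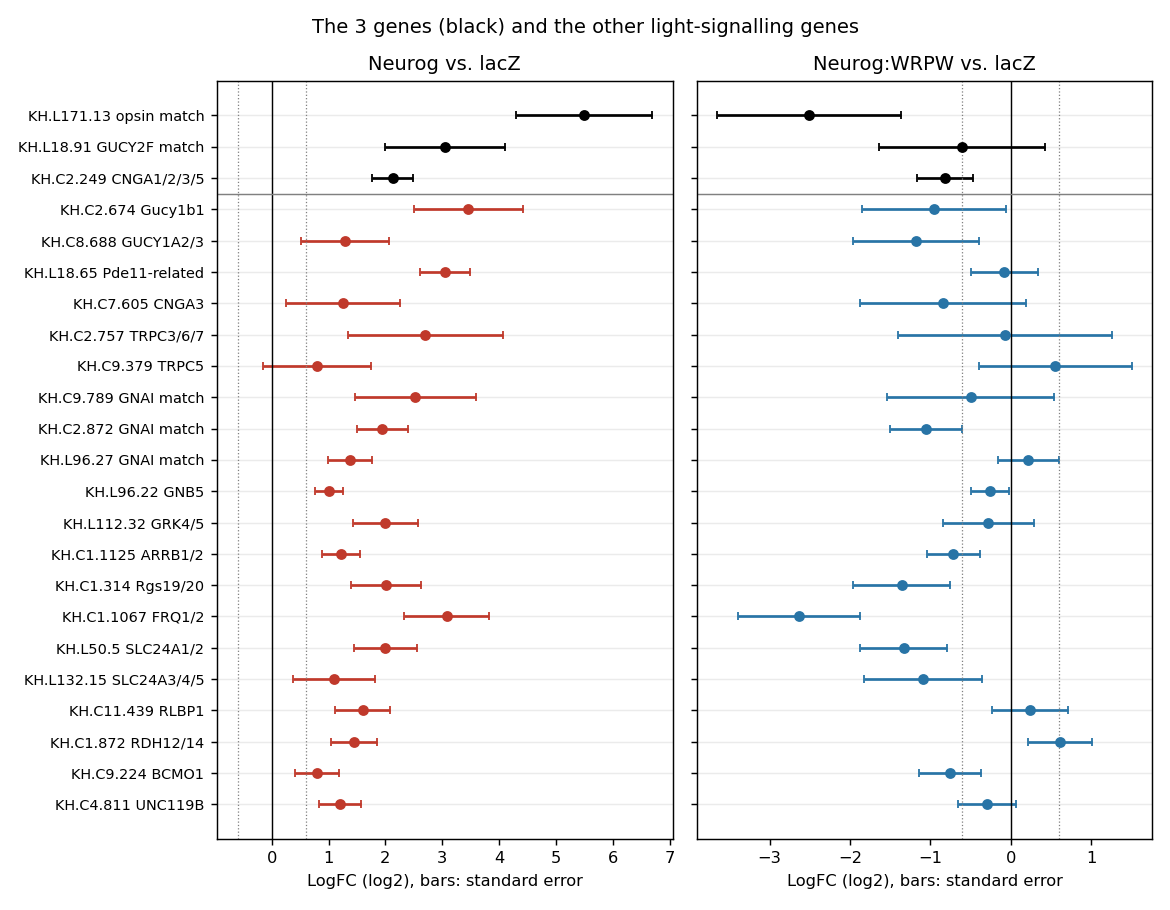
LogFC with its standard error (bars) of the 3 genes (black, top) and of the other 20 light-signaling genes in Neurog vs. lacZ (left) and Neurog:WRPW vs. lacZ (right), with dotted lines at 0.6 and -0.6. All 20 lie above 0 on the left, where the list was drawn from the highest values. On the right 16 of 20 lie below 0, as do 52% of all genes tested, and 2 of the 20 passed the thresholds. Both sides share the lacZ libraries, so the right side is not independent of how the list was drawn.

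The genes whose log2 CPM profile was most like that of each member were sought by Pearson correlation over the 6 libraries, which reflects shape and not size. For the opsin match they were KH.C1.396 (*Mtcl1* in the study's tables, r = 0.999), KH.S1066.5 (r = 0.998) and KH.C4.649 (*Bhlh-tun2*, a transcription factor gene, r = 0.997). *Bhlh-tun2* was at 140.1 and 159.7 CPM in Neurog, at 4.12 and 0.445 CPM in Neurog:WRPW, and at 16.0 and 7.16 CPM in lacZ. For the *GUCY2F* match they were KH.C14.421 (r = 0.999), KH.C1.171 (r = 0.998) and KH.C6.274 (r = 0.998), of which the last spanned only 19.5 to 45.1 CPM. For *CNGA1/2/3/5* they were KH.C2.33 (named *ZNF385B*, r = 0.996), KH.C11.305 (r = 0.995) and KH.L152.55 (r = 0.995). The 3 members correlated with each other at 0.969 (opsin and *GUCY2F* matches), 0.922 (opsin match and *CNGA1/2/3/5*) and 0.807 (*GUCY2F* match and *CNGA1/2/3/5*). Many genes were closer to each than the other members were: the *GUCY2F* match ranked 127 and *CNGA1/2/3/5* ranked 441 in likeness to the opsin match. These correlations rest on 6 libraries in 3 conditions and are given as a description.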

How the data were processed

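RNA-seq was analysed for 6 libraries, 2 per condition, made with SMART-Seq v4 from sorted cells. Per the study's methods, STAR 2.5.2b was the authors' aligner, and featureCounts gave counts over exons of the KyotoHoya (KH) models without duplicate reads. The deposited values are raw counts per gene model, with its length in bases. Removing duplicates lowers abundant transcripts most. Assembly version and strand setting: not given in the sources used here. Reads of overlapping or antisense genes and close paralogs may be shared.

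A filter of over 1 CPM in 2 or more libraries kept 12253 genes. One model of all conditions was fitted, after TMM scaling, with edgeR 4.0.16 (R 4.3.3), quasi-likelihood test, two-sided, with Benjamini-Hochberg adjustment over all genes tested. The standard error is the LogFC divided by the square root of F. With 2 libraries against 2, an exact permutation test cannot go below p = 0.333. Calls use the study's thresholds (LogFC beyond 0.6 or -0.6, unadjusted p under 0.05). The procedure was tested on simulated data. The alternatives were RLE scaling, other filters, DESeq2 1.42.0, edgeR's exact test, a replicate block, only the 2 groups compared, and leaving out each library.

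Genes, list and tests were chosen with earlier results of these data known. A further list gene is not reported here and was left out of the list's counts. The genes named are the 3 members, BTN and photoreceptor markers, list genes of a member's family or with an unadjusted p under 0.05 in Neurog:WRPW vs. lacZ, and the 3 closest profiles per member. Pde11-related, SLC24A3/4/5 and the retinoid genes were added after their values were seen.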

Additional observations from a re-analysis of the deposited data

How the results depend on the processing

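In all, 326 alternative values kept the direction and the side of the threshold, or stayed within the spread or, for counts of genes, near the main count. A further 23 moved by more, up or down, 15 passed the thresholds newly, 8 ceased to pass and 5 changed sign. For the members in the comparisons with Neurog, which carry no test, only size and sign were compared, and for counts of genes only size. Calls lost by KH.L18.91 in Neurog vs. lacZ are therefore not among the 8. The LogFCs in Neurog vs. lacZ ran from 4.77 to 6.98 for KH.L171.13, 2.81 to 3.36 for KH.L18.91 and 1.76 to 2.65 for KH.C2.249 over the fits that leave out 1 library. In Neurog:WRPW vs. lacZ they ran from -10.1 to -1.04, -5.03 to 0.27 and -1.19 to -0.312, and in Neurog vs. Neurog:WRPW from 7.19 to 15.5, 2.78 to 8.07 and 2.72 to 3.18. In these fits the lone library is assumed to vary like the other groups. For KH.L171.13, -10.1 and 15.5 come from a condition left with 0 counts. For KH.C2.249 in Neurog:WRPW vs. lacZ, a fit with no filter on low counts gave -0.826 and passed the thresholds, and for KH.L171.13 the exact test gave -2.65.

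The conditions share replicate numbers, but nothing in the labels says that a number marks a batch. Differences between replicates 1 and 2 correlated at 0.537 (Neurog and Neurog:WRPW), 0.565 (Neurog and lacZ) and 0.611 (Neurog:WRPW and lacZ) across 7969 genes. With the replicate block, KH.L171.13 was at -2.50 and KH.C2.249 at -0.809 in Neurog:WRPW vs. lacZ, and both passed the thresholds. So did GUCY1A2/3 (KH.C8.688), at -1.32, and ARRB1/2 (KH.C1.1125), at -0.726. In Neurog vs. lacZ GUCY1A2/3 passed at 1.38. The block changed no other call of a gene tested by name. The block gave 813 genes up in Neurog and 435 down in Neurog:WRPW, in place of 534 and 146, and 8 of the 20 list genes fell in place of 2.

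Over the fits without 1 library, the 534 ran from 231 (without lacZ replicate 2, and 281 without Neurog replicate 1) to 652, and the 146 from 75 (without lacZ replicate 1) to 930 (without Neurog:WRPW replicate 1), and the 146 were 97 with only the 2 groups compared. Of the list, 6 to 15 rose and 0 to 7 fell in those fits, and 4 fell with no filter, with DESeq2 or with the exact test. Pde11-related (KH.L18.65), at -0.078 in Neurog:WRPW vs. lacZ, was at 0.278 without Neurog:WRPW replicate 2 and 0.404 without lacZ replicate 1, Gucy1b1 (KH.C2.674) at 0.658 without lacZ replicate 1, and CNGA3 (KH.C7.605) at 0.019 without Neurog:WRPW replicate 1. Their lowest values without 1 library were -0.562, -2.49 and -2.79. Depth limits the members most in Neurog:WRPW replicate 2, where 3 counts are 0.334 CPM. That library was also sorted from the fewest cells. The study itself raises the unequal cell numbers of the Neurog:WRPW replicates as a possible source of lower statistical support.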
